A study of Caenorhabditis elegans with 9 samples.

Results

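*T16G1.4*, *T16G1.5*, *T16G1.6* and *T16G1.7* are 4 kinase-like genes that lie next to each other on chromosome V of *C. elegans*. They were chosen by symbol from the 46926 genes of the deposited table, with their values in these libraries already known. Their levels and differences between conditions are therefore a description, without a p value. RNA was sequenced from whole wild-type worms of the strain N2, in 3 libraries for each of 3 feeding conditions. All worms ate HT115 control bacteria until adult day 1 and were then kept for 24 h on plates with 10 μg ml−1 kanamycin, which stops bacterial growth. The plates carried undiluted HT115 bacteria (ad libitum, AL), diluted bacteria (dietary restriction 1, DR1) or no bacteria (dietary restriction 0, DR0). The antibiotic, the strain and the earlier food are thus common to AL, DR1 and DR0, and the labels name no mutation or transgene. No source used here says if the replicates were separate cultures. Errors and p values therefore measure the spread between these libraries only, which may be technical.

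The proteins belong to a nematode-rich family whose fold resembles that of choline kinases and of bacterial kinases that inactivate aminoglycoside antibiotics. A related enzyme of insects puts a phosphate on ecdysteroid moulting hormones. Substrates of the worm proteins are not given in the sources used here, and the name kinase-like is used for the family and not for a measured activity.

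The genes form a compact tandem array. In the annotation of Ensembl release 115 (assembly WBcel235), *T16G1.7* (WBGene00011801) spans V:12932941-12935112, *T16G1.6* (WBGene00011800) V:12935538-12937174, *T16G1.5* (WBGene00011799) V:12937574-12939552 and *T16G1.4* (WBGene00011798) V:12940141-12941847. All 4 lie on the minus strand, so *T16G1.4* is the most upstream and *T16G1.7* the most downstream in the direction of transcription. The array covers 8907 bases with no other annotated gene inside it. The gaps are 588 bases between *T16G1.4* and *T16G1.5*, 399 between *T16G1.5* and *T16G1.6*, and 425 between *T16G1.6* and *T16G1.7*.

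The gene structures closely resemble each other. Each gene has 1 coding sequence in 7 exons, for proteins of 424 residues (*T16G1.4*), 434 (*T16G1.5*), 431 (*T16G1.6*) and 436 (*T16G1.7*). Coding exons 3, 5 and 6 are 250, 162 and 75 bases long in every one of the 4, and coding exon 4 is 104 bases in *T16G1.4*, *T16G1.5* and *T16G1.6* and 107 in *T16G1.7*. Of 19985 genes with coding exons in the annotation, 6 carry this run of 4 exon lengths. The other 2 are the next gene upstream, *T16G1.3*, whose end lies 424 bases beyond the start of *T16G1.4*, and F48G7.12, at V:643695-646229 on the same chromosome. F48G7.12 matches *T16G1.7* in exons 1, 3, 4, 5, 6 and 7 and differs from it only in exon 2, with 396 bases in place of 399.

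**Figure D1:**
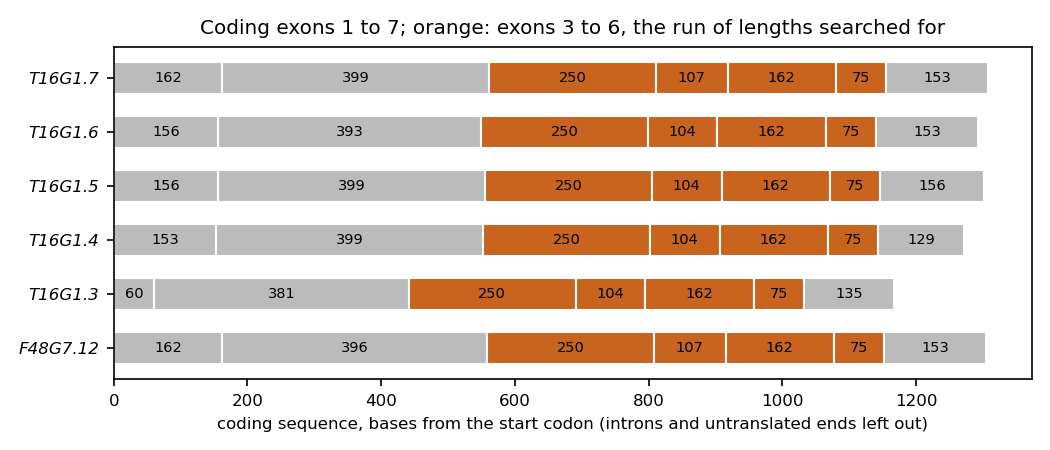
Coding exons of the 4 genes and of the other 2 genes with the same run of exon lengths, drawn to scale in bases from the start codon, with the length of each exon in bases written in it. Exons 3 to 6 (orange) are 250, 104 or 107, 162 and 75 bases long in all 6 genes, whereas exons 1, 2 and 7 (grey) vary.

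Genes this alike can share reads. A read that fits several of them equally well cannot be given to a single gene, and the exchange of reads between them was not tested, since no sequence was read here. The summed count of the 4 genes is therefore given beside each gene. The other limit concerns strand. *T16G1.7* and *T16G1.2* run towards each other and overlap by 60 bases at their 3′ ends, and reads were counted without strand. *T16G1.2* had between 0 and 4 counts in each of the 9 libraries, against 43 to 534 counts of *T16G1.7*.

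All 4 genes had counts in every library and passed the filter on low counts, as did 14332 genes in all. Expression is given as CPM (the usual depth-scaled count unit, with each library scaled by TMM), as mean ± SD (n = 3). Total counts were 9203611 to 12012750 per library. A log2 fold change comes from edgeR's quasi-likelihood model of all 9 libraries, and its standard error (s.e.) was derived from that model's F statistic. Upregulated or downregulated genes are those whose log2 fold change exceeds 1 or lies under −1 and whose Benjamini–Hochberg adjusted p lies under 0.05.

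Diluted food gave the highest level of each of the 4 genes. *T16G1.7* and *T16G1.4* were several-fold higher in DR1 than in AL, *T16G1.6* was 2.50-fold higher and *T16G1.5* 1.27-fold higher. Without food, the 4 genes parted. *T16G1.4* and *T16G1.7* stayed above AL, *T16G1.5* overlapped AL, and *T16G1.6* lay below it. Every gene was lower in DR0 than in DR1, with no overlap between the libraries.

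**Figure D2:**
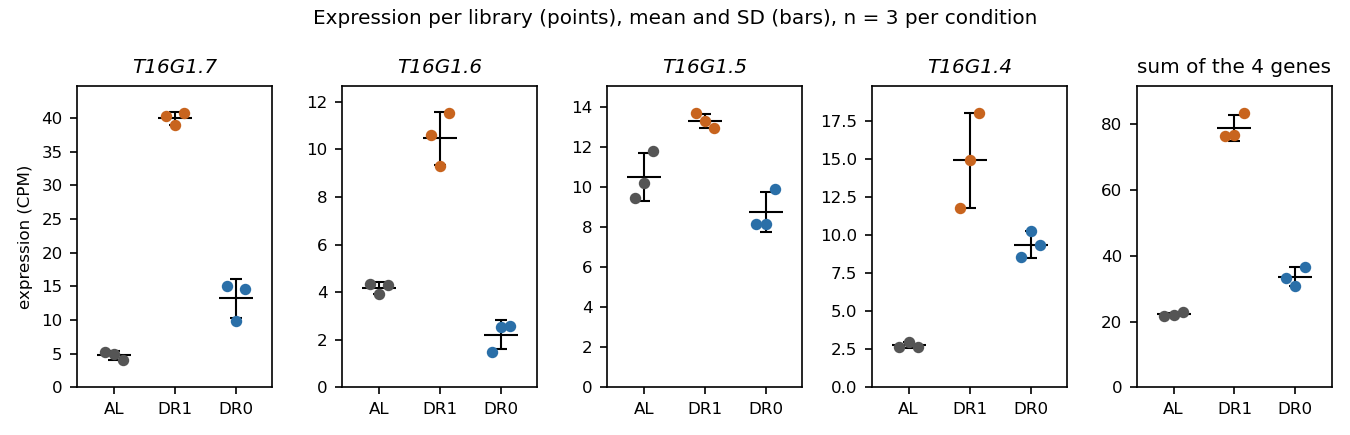
Expression (CPM, linear axes from 0) of each gene and of their sum in the 3 libraries of AL, DR1 and DR0; points are libraries, bars the mean and SD. DR1 is highest in all 5 panels, and DR0 lies above AL for *T16G1.7*, *T16G1.4* and the sum and below it for *T16G1.6*.

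*T16G1.7*, the most downstream gene of the array, had the largest difference of the 4 genes between DR1 and AL. It stood at 5.33, 4.94 and 4.03 CPM in the AL libraries, from 48, 43 and 44 reads. In DR1 it stood at 40.3, 38.9 and 40.7 CPM. In DR0 the values were 15.1, 9.84 and 14.7 CPM, with replicate 2 the lowest. The conditions did not overlap, and the DR1 libraries lay within a narrow range. Against an AL mean of 4.77 ± 0.670 CPM, the DR1 mean was 40.0 ± 0.943 and the DR0 mean 13.2 ± 2.93, so DR1 was 8.39-fold and DR0 2.77-fold above AL. On the log2 scale the differences from AL were 3.08 (s.e. 0.15) in DR1 and 1.48 (s.e. 0.17) in DR0. Ordered by log2 fold change in DR1, it was number 116 of the 14332 genes.

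*T16G1.4*, at the other end of the array, followed the same order of conditions. It had the lowest level of the 4 genes in AL, at 2.67, 2.99 and 2.65 CPM. The DR1 libraries held 11.8, 14.9 and 18.0 CPM and the DR0 libraries 8.53, 10.3 and 9.33 CPM. DR1 varied more between libraries here than it did for *T16G1.7*, yet its lowest library lay above the highest of DR0. The means were 2.77 ± 0.189 CPM (AL), 14.9 ± 3.11 (DR1) and 9.38 ± 0.874 (DR0). Against AL, the fitted difference on the log2 scale was 2.43 (s.e. 0.20) for DR1 and 1.76 (s.e. 0.21) for DR0. Thus *T16G1.4* had the smaller fold in DR1 and the larger in DR0 when set beside *T16G1.7*. The order DR1 over DR0 over AL with no overlap, which *T16G1.4* and *T16G1.7* share, was found in 619 of the 14332 genes (4.32%), and DR0 libraries all above those of AL in 31.7% of them.

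*T16G1.6* went to opposite sides of AL. Its AL libraries held 4.33, 3.91 and 4.30 CPM, its DR1 libraries 10.6, 9.30 and 11.5 CPM, and its DR0 libraries 1.499, 2.54 and 2.58 CPM. All libraries of DR1 were higher and all of DR0 lower than those of AL. Its mean was 4.18 ± 0.238 CPM with undiluted food, 10.5 ± 1.11 with diluted food and 2.21 ± 0.614 without food. On the log2 scale DR1 differed from AL by 1.32 (s.e. 0.20) and DR0 by −0.91 (s.e. 0.26). The DR0 value passed the threshold of −1 without DR0 replicate 2 (−1.02) or without DR0 replicate 3 (−1.04), and not with all libraries. The DR0 libraries rest on only 13, 23 and 26 reads. The 95% exact Poisson interval of the lowest count runs from 6.92 to 22.2 reads and covers counting error only. The order DR1 over AL over DR0 with no overlap was found in 232 of the genes tested (1.62%), and DR0 libraries all below those of AL in 32.6% of them. Between DR0 and DR1, *T16G1.6* differed by −2.23 on the log2 scale (s.e. 0.23), a 4.74-fold lower mean without food, which ranked number 4 of the 14332 genes from the most negative upwards.

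*T16G1.5*, between *T16G1.4* and *T16G1.6*, differed least between conditions. The AL libraries held 9.44, 10.2 and 11.8 CPM, those of DR1 13.69, 13.31 and 12.96 CPM and those of DR0 8.19, 8.18 and 9.92 CPM. DR1 lay just above AL, while DR0 and AL overlapped. The means were 10.5 ± 1.20, 13.3 ± 0.367 and 8.76 ± 1.01 CPM. Set against AL, DR1 was at 0.34 (s.e. 0.15) and DR0 at −0.26 (s.e. 0.16) on the log2 scale, and DR0 was at −0.60 (s.e. 0.15) when set against DR1. *T16G1.5* had the highest level of the 4 in AL and the smallest difference in either comparison with AL.

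The sum of the 4 genes is not altered by reads of one of them that were counted for another. It does not restore reads that could not be given to a single gene, and it leaves out *T16G1.3* and F48G7.12. The AL libraries summed to 196, 192 and 249 reads, those of DR1 to 837, 839 and 1091 and those of DR0 to 289, 279 and 368. Scaled, the sum had a mean of 22.2 ± 0.522 CPM (AL), 78.7 ± 3.88 (DR1) and 33.6 ± 2.85 (DR0), again with no overlap between conditions. DR1 was 3.54-fold and DR0 1.51-fold above AL, which is 1.82 (s.e. 0.081) and 0.60 (s.e. 0.089) on the log2 scale. The sum differed by −1.23 (s.e. 0.077) between DR0 and DR1. The sum in DR0 combines the higher levels of *T16G1.4* and *T16G1.7* with the lower level of *T16G1.6*, so it does not describe any single gene.

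At both thresholds, 3 of the 4 genes (*T16G1.4*, *T16G1.6* and *T16G1.7*) were among the upregulated genes in DR1, where 10.6% of all genes tested were. In DR0, 2 of the 4 (*T16G1.4* and *T16G1.7*) were, against 11.3% of all genes. Between DR0 and DR1, 2 of the 4 (*T16G1.6* and *T16G1.7*) were among the downregulated genes, against 1.03% of all genes, while *T16G1.4* differed by −0.67 (s.e. 0.17) on the log2 scale. The libraries of all 4 genes were higher in DR1 than in AL without overlap, as they were for 31.5% of all genes, and lower in DR0 than in DR1, as for 23.2% of all genes. The 4 genes had a median log2 fold change of 1.88 (DR1 to AL), 0.61 (DR0 to AL) and −1.13 (DR0 to DR1), where the medians of all genes were 0.033, 0.034 and 0.0052. These counts follow from the choice of the genes and carry no weight of their own. DR1 and DR0 were compared with the same AL libraries.

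The make-up of the array differed between conditions. Levels of different genes are compared per kilobase of exon, because the exon lengths run from 1355 bases (*T16G1.6*) to 1644 (*T16G1.5*). In AL, *T16G1.5* led with 6.38 CPM per kb, followed by *T16G1.7* (3.18) and *T16G1.6* (3.09), whose libraries overlapped, and by *T16G1.4* (1.97). In DR1 the order was *T16G1.7* (26.7 CPM per kb), *T16G1.4* (10.6), *T16G1.5* (8.10) and *T16G1.6* (7.72), where the libraries of *T16G1.6* overlapped those of both *T16G1.5* and *T16G1.4*. In DR0 it was *T16G1.7* (8.81), *T16G1.4* (6.66), *T16G1.5* (5.33) and *T16G1.6* (1.63), with overlap only between the first 2. *T16G1.7* thus went from a level above 28.7% of the genes tested in AL to one above 70.8% of them in DR1 and 46.1% in DR0. *T16G1.6* stood above 28.3% of the genes in AL, 42.7% in DR1 and 15.7% in DR0.

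**Figure D3:**
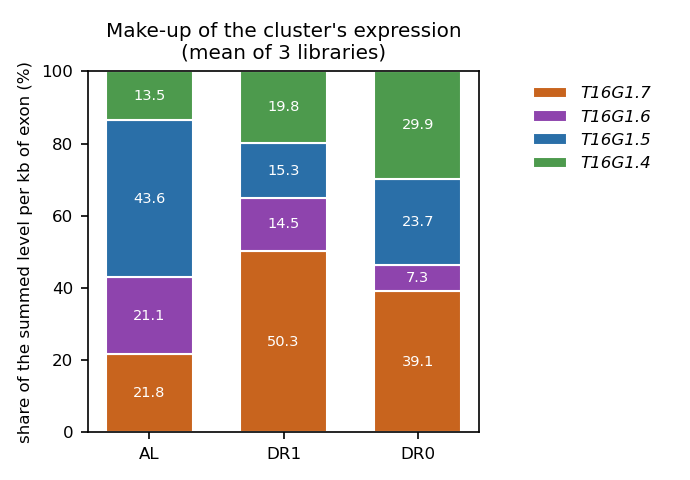
Share of each gene in the summed level per kilobase of exon (%), mean of 3 libraries per condition. *T16G1.5* (blue) holds 43.6% in AL and *T16G1.7* (orange) 50.3% in DR1, while *T16G1.6* (purple) goes from 21.1% in AL to 7.29% in DR0.

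Per kilobase, *T16G1.5* made up 43.6% ± 4.16 (AL), 15.3% ± 1.15 (DR1) and 23.7% ± 1.21 (DR0) of the summed level. The share of *T16G1.7* was 21.8% ± 3.45, 50.3% ± 2.06 and 39.1% ± 6.90 in the same order. The downstream pair, only 425 bases apart, had a lower ratio in DR1 and in DR0 than in AL. In CPM, *T16G1.6* was at 89.0% ± 15.4 (AL), 26.1% ± 2.20 (DR1) and 17.8% ± 7.96 (DR0) of the level of *T16G1.7*. The DR1 libraries (23.9% to 28.3%) and the DR0 libraries (9.92% to 25.8%) overlapped, and both lay below those of AL (79.1% to 107%). Within the array, *T16G1.4* and *T16G1.7* were the most alike across the 9 libraries. The root mean square difference of their log2 profiles, each set to its own AL mean, was 0.52, and *T16G1.4* was number 12 of 14331 genes in likeness to *T16G1.7*, while *T16G1.7* was number 183 in likeness to *T16G1.4*. *T16G1.5* and *T16G1.6* differed by 0.64, with *T16G1.5* number 222 in likeness to *T16G1.6* and *T16G1.6* number 9244 in likeness to *T16G1.5*. Each of the remaining pairs, which join a gene of one pair to a gene of the other, differed by 1.52 to 1.79. *T16G1.4* and *T16G1.7* are the outermost genes, and *T16G1.5* and *T16G1.6* are direct neighbours.

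The question whether the levels changed along the whole stretch of chromosome was addressed with the 5 nearest protein-coding genes on each side, chosen by position alone. Of these 10, 6 passed the count filter. The p values that follow are those of edgeR's quasi-likelihood test, adjusted over all genes tested. *lipl-1*, a lysosomal lipase gene, rose in DR1 by 1.34 on the log2 scale (s.e. 0.11, edgeR adjusted p = 1.86e-10) and stood at 0.33 in DR0 (edgeR adjusted p = 0.0211). Its mean was 23.9 ± 4.55 CPM (AL), 61.1 ± 2.81 (DR1) and 30.1 ± 4.16 (DR0), which is the order of *T16G1.4* and *T16G1.7*, although its DR0 and AL libraries overlapped. From DR1 to DR0 it fell by 1.02 (edgeR adjusted p = 3.54e-08), and this was no longer past the fold threshold without DR1 replicate 1 (−0.98), DR0 replicate 1 (−0.97) or DR0 replicate 2 (−0.95). *grl-2*, of the ground-like family of hedgehog-related genes, was just past the threshold in DR1, at 1.01 (s.e. 0.39, edgeR adjusted p = 0.0283), from 1.37 ± 0.672 CPM in AL. That call was lost without AL replicate 2 (0.75), AL replicate 3 (0.91), DR1 replicate 2 (0.98) or DR1 replicate 3 (0.97), and *grl-2* overlaps *T16G1.9* on the other strand by 61 bases. Thus 2 of the 6 flanking genes were upregulated in DR1, beside 10.6% of all genes. *nid-1*, which codes for the basement membrane protein nidogen, fell by 1.43 when food was absent (s.e. 0.10, edgeR adjusted p = 1.32e-11), where 8.16% of all genes were downregulated, and stood at −0.83 in DR1.

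The genes next to the array were nearly silent. The adjoining *T16G1.3* held 3 to 17 counts per library, with means of 0.493 ± 0.181 CPM (AL), 0.949 ± 0.330 (DR1) and 0.610 ± 0.145 (DR0). Its conditions overlapped and it did not pass the filter. At the other end, *T16G1.2* and *pqn-67*, named for a protein stretch rich in glutamine and asparagine, did not pass it either. Farther away, on the side of *T16G1.3*, *T16G1.13* lies inside *T16G1.9* on the other strand and had no count in any library. *pqn-67* passed the filter and both thresholds in DR1 only when AL replicate 3 was left out (2.85). F48G7.12, with its like exon lengths elsewhere on the chromosome, had 1 count in each of DR0 replicates 1 and 2 and none in any other library. Among flanking genes past the filter, the dehydrogenase gene *dhrs-4* stood at 0.78 (DR1) and 0.62 (DR0) on the log2 scale relative to AL. In the same order, *T16G1.9* stood at 0.19 and −0.34. *T16G1.18* stood at 0.24 and 0.56, each with an s.e. of 0.59, from only 4 to 23 counts per library. With total-count scaling *dhrs-4* was also past the fold threshold in DR1 (1.12).

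**Figure D4:**
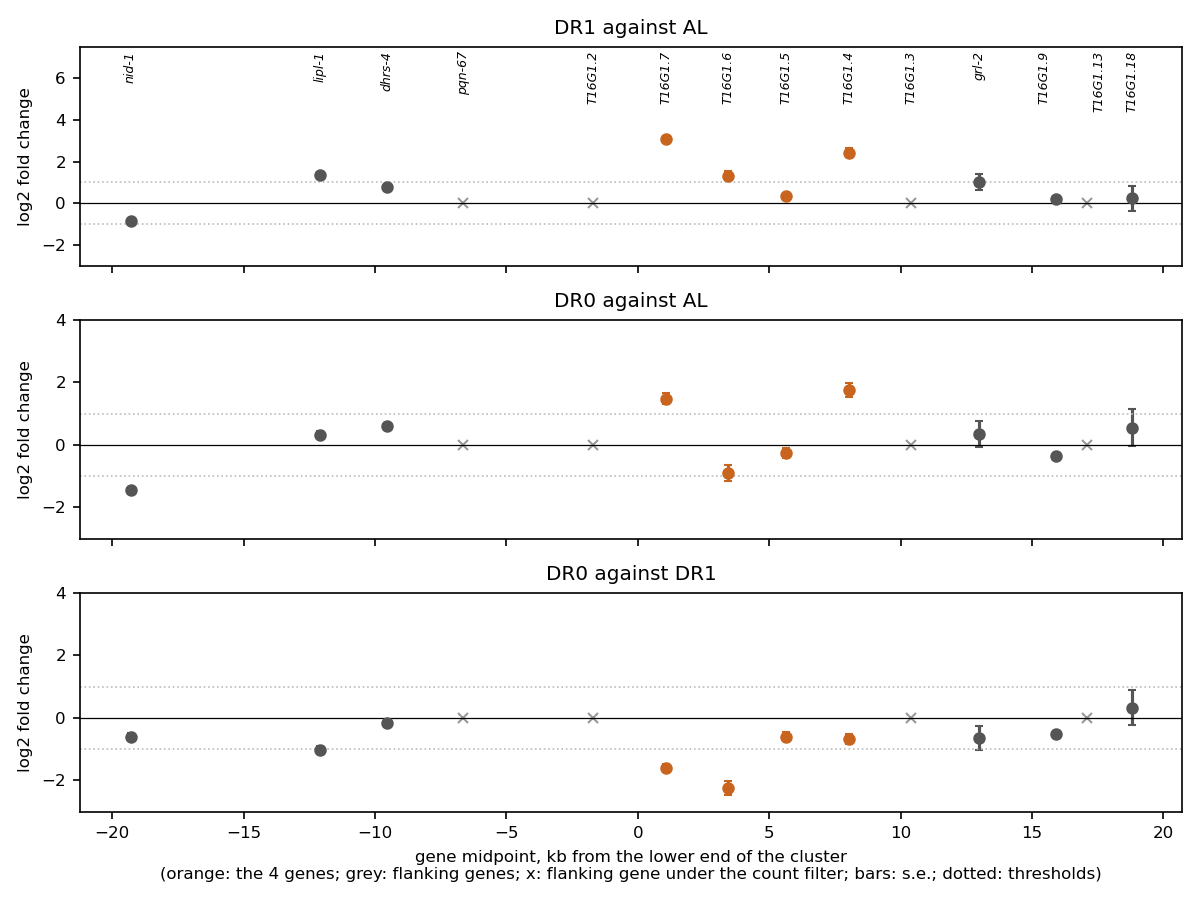
Log2 fold change (y axis, bars s.e.) of the 4 genes (orange) and of the 5 nearest protein-coding genes on each side (grey), by the distance of the gene's midpoint from the lower end of the array (kb), for DR1 against AL, DR0 against AL and DR0 against DR1. Crosses at 0 mark flanking genes under the count filter, which have no fold change. The 4 genes spread from 0.34 to 3.08 in DR1 and from −0.91 to 1.76 in DR0.

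Genes outside the array were ranked by how near their profile across the 9 libraries was to the summed one. The 4 genes themselves were left out of this ranking, and of those for single genes below. By root mean square difference of log2(CPM + 0.5) from the AL mean, the 5 nearest of the genes tested were the C-type lectin gene *clec-218* (0.15), *npa-1*, which codes for a lipid-binding polyprotein (0.16), *pgp-5*, an ABC transporter of the P-glycoprotein type (0.20), *rrf-2*, related to RNA-dependent RNA polymerases (0.23), and F15B9.6 (0.23). *npa-1*, for example, had means of 46.7 ± 3.07 CPM (AL), 159 ± 3.55 (DR1) and 82.4 ± 2.09 (DR0). For single genes, the nearest were the C-type lectin gene *clec-5* for *T16G1.7* (0.31), DH11.2 for *T16G1.4* (0.23), M01G12.9 for *T16G1.5* (0.067) and the prolyl carboxypeptidase-like gene *pcp-1* for *T16G1.6* (0.34). *pcp-1* too was higher in DR1 and lower in DR0 than in AL, at 47.0 CPM (AL), 85.6 CPM (DR1) and 19.8 CPM (DR0).

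**Figure D5:**
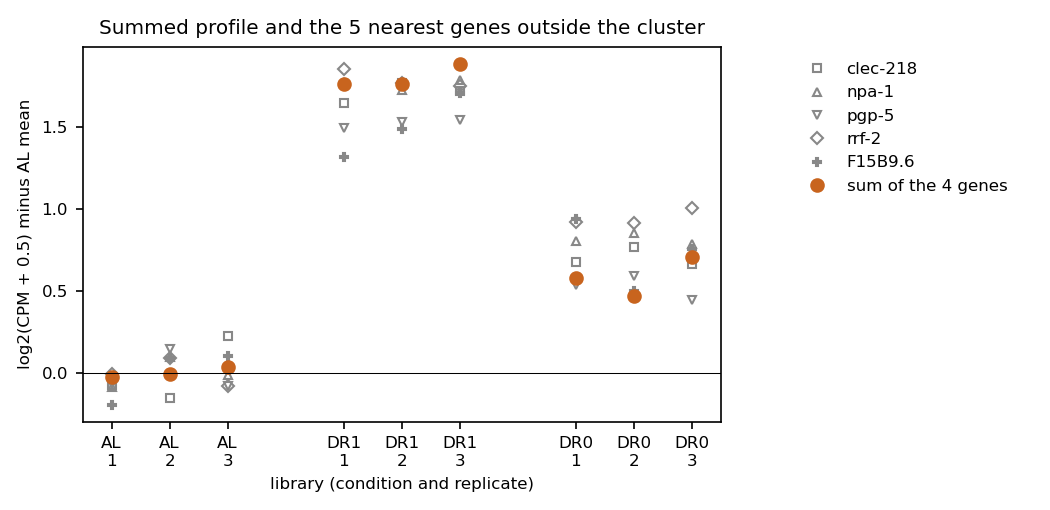
Profile of the summed array (orange) and of the 5 nearest genes outside it (grey symbols) in the 9 libraries, as log2(CPM + 0.5) minus the gene's own AL mean. The symbols cluster near 0 in AL and are highest in DR1, with DR0 in between. For the 5 genes this follows from the subtraction of the AL mean and from their choice by nearness to the sum.

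Since whole worms were sequenced, a lower marker level cannot show if a tissue gave less RNA or if its marker genes were less expressed. Markers of several tissues moved with diet while the array did. Of all genes tested, 8.62% were downregulated in DR1 and 8.16% in DR0. Of 8 intestinal markers, 3 were downregulated in DR1 and 3 in DR0, and their summed level was 4116 to 4190 CPM in AL, 2204 to 2382 in DR1 and 3403 to 3570 in DR0. Of 8 germ line and oocyte markers, 6 were downregulated in DR1 and 1 in DR0, with sums of 1993 to 2027 CPM, 738 to 777 and 1288 to 1314. Of 5 body wall muscle markers, 2 were downregulated in DR1, and in DR0 1 rose and 1 fell, with sums of 1072 to 1103, 517 to 565 and 1116 to 1134 CPM. Of 4 epidermal markers, 2 passed the filter and 1 fell in each condition, with sums of 1013 to 1065, 39.7 to 43.7 and 44.7 to 52.7 CPM. The 5 neuronal markers summed to 367 to 386, 364 to 375 and 498 to 517 CPM. The intestinal, germ line, muscle and epidermal sums were lowest in DR1, where the 4 genes were highest. A sum is weighted towards its most abundant markers. Median log2 fold changes of the markers tested, in DR1 and DR0 against AL, were −0.42 and −0.43 for intestine. They were −1.29 and −0.69 for germ line, and −0.74 and 0.46 for muscle. Medians were −2.26 and −1.95 for epidermis (2 genes), and 0.00042 and 0.44 for neurons. The part of these tissues in the levels of the array was not tested. More genes had a count in DR1 (20372 to 20845 per library) than in AL (18274 to 18527) or DR0 (19518 to 19951).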

How the data were processed

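The deposited table holds unscaled counts, made by the authors, for every gene in 9 RNA-seq libraries of N2 worms (3 per condition). Per the study's methods, reads of low quality were removed, and the rest were aligned with STAR to WBcel235 and counted over exons with htseq-count, in union mode and without strand. Different STAR versions and sequencers are named in the methods and in the submitters' processing notes and labels (2.73a in the notes). Counts totalled 9203611 to 12012750 per library, and all libraries entered the fit.

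The counts were tested in R 4.3.3 with edgeR 4.0.16 (filterByExpr, TMM, glmQLFit and glmQLFTest, 1 mean per condition), with Benjamini–Hochberg adjustment over 14332 genes. The genes, lists and tests were chosen with earlier results of these data known. The genes named are the 4 genes, the 5 nearest protein-coding genes on each side, the 5 genes nearest to the sum by profile and the nearest to each gene. The 4 genes were left out of the search for the nearest profiles. Relatives were to be found by protein similarity or product name, and named by size of change, but neither proteins nor product names were used here, and promoter motifs were not searched. Genes with the same coding exon lengths, found from the annotation alone, took their place and were chosen after the data were seen. The alternatives were RLE, upper-quartile and total-count scaling, limma-voom (limma 3.58.1), DESeq2 1.42.0, other count filters, no fold threshold, the replicate number as a block, fits of the 2 conditions compared, and leaving out each library. The model was tested on simulated data. Figures were made with Python 3.11.15 and matplotlib 3.10.9.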

Additional observations from a re-analysis of the deposited data

How the results depend on the processing

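Each of the 4 genes and their sum kept the sign of the log2 fold change under all 18 settings tried, in each of the 3 comparisons. With RLE, upper-quartile and total-count scaling, chosen for this check after the data were seen, the libraries of each gene also overlapped, or did not, in the same comparisons as with TMM. Total-count scaling shifts the median gene by 0.35 in DR1 against AL and by −0.29 between DR0 and DR1 (log2), and gave 2.17 and −1.52 for the sum. Upper-quartile scaling shifts the median gene by 0.20 and 0.21 in DR1 and DR0 against AL, and gave 2.02 and 0.80. Leaving out each library gave 1.78 to 1.85 for the sum in DR1, 0.53 to 0.65 in DR0 and −1.29 to −1.17 in DR0 against DR1. *T16G1.6* in DR0 against AL lies close to the threshold, from −1.04 to −0.70 over all settings, and counted as downregulated without DR0 replicate 2 (−1.02) or replicate 3 (−1.04). No other of the 4 genes crossed a threshold. Of the flanking genes, 1 was upregulated in DR1 with no filter on low counts (*grl-2* was lost, at 1.00) and 1 or 2 without each library (1 without AL replicate 2, DR1 replicate 2 or DR1 replicate 3; without AL replicate 3 *pqn-67* took the place of *grl-2*), and 0 or 1 was downregulated in DR0 against DR1 (0 without DR1 replicate 1 or DR0 replicate 1 or 2). With total-count scaling, 3 were upregulated in DR1, with *dhrs-4* added (1.12). With no fold threshold, 3 were upregulated and 1 downregulated in DR1, and 2 upregulated and 2 downregulated in DR0. In DR0 against DR1, 3 were then downregulated. The shares of all genes given above use the fold threshold and cannot be set beside these counts. The causes were not tested. Libraries with the same number showed little shared deviation (r from −0.017 to 0.078 over 9 pairs, with 3 of 9 libraries nearest to their own number). For pairs with different numbers, r ran from −0.071 to 0.058. With 3 libraries per condition, these values cannot show whether the numbers pair the samples. With the replicate block the sum was at 1.83, 0.60 and −1.23, and no call among the 4 genes changed. The alternatives planned for relatives found by protein similarity were not run.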
